A study of Caenorhabditis elegans with 6 samples.

Results

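The worms compared here were *ets-4(ok165)* mutants and wild-type N2 *C. elegans*, both taken as late L4 larvae grown on plates of OP50 bacteria at 20°C. *ok165* deletes from *ets-4* the sequence that codes for its ETS and PNT domains, and the strain had been outcrossed repeatedly to N2. The comparison is the set of 3 arrays, of 6 in the series, that carried Cy5-labeled *ets-4(ok165)* cDNA and Cy3-labeled wild-type cDNA. The other 3 arrays carried *ets-4(uz1)*, a second deletion that removes most of the ETS domain, in place of *ok165*. Whole larvae were used, so fewer cells of a type and less RNA per cell cannot be told apart. No dye swap was made, so in these 3 arrays alone the dye and the genotype cannot be told apart. Both mutants were labeled with Cy5, so a difference between the strains compares ratios of the same dye orientation.

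ETS-4 belongs to the ETS family of transcription factors, which bind DNA through a winged helix-turn-helix called the ETS domain and act at promoters and enhancers. A PNT domain, found in part of the family, mediates contacts with other proteins. Late L4 is the stage just before the adult molt, when the intestine begins to make the yolk proteins that oocytes take up and the germ line has made sperm and turns to oocytes. The intestine of *C. elegans* also digests bacteria, stores fat and makes many of the secreted antimicrobial proteins. Values below are log2 ratios of mutant over wild type, so that a negative value is a lower signal in the mutant. A channel is called measured where Feature Extraction rated its spot well above background.

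Array 1 was on a slide that also held an *ets-4(uz1)* array, and arrays 2 and 3 shared another slide. Each array held 21482 non-control spots, with the wild-type channel measured at 68.5% to 71.6% of them and the mutant channel at 77.2% to 85.4%. After filtering, 14707 genes were tested, of which 14564 had a value on every array. The median ratio over these genes was −0.04 on array 1, 0.02 on array 2 and 0.00 on array 3. The spread was unequal, with an SD over genes of 0.653, 0.627 and 0.327. Pearson's r over genes, themselves no independent replicates, was 0.124 between arrays 1 and 2, 0.349 between arrays 1 and 3 and 0.154 between arrays 2 and 3.

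**Figure D1:**
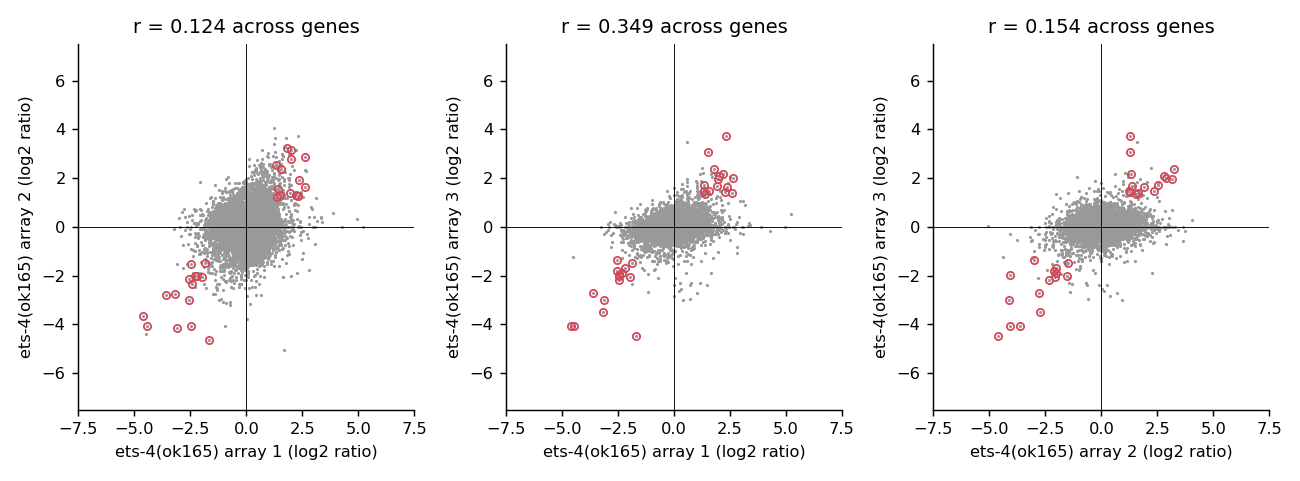
Log2 ratios of *ets-4(ok165)* over wild type for 14707 genes, 1 grey point per gene, for each pair of the 3 arrays, with the 30 leading genes circled. The grey cloud has an r of 0.124 to 0.349, and the circled genes lie away from 0 on both axes because they were chosen for that.

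The gene that changed in the test across all genes was *asp-12* (F21F8.4, chromosome V), which encodes a pepsin-like aspartyl protease. Its ratio was −4.44 on array 1, −4.07 on array 2 and −4.08 on array 3. It fell 18.4-fold (mean −4.20 ± 0.21, SD with n = 3 arrays, limma adjusted p = 0.0311), and both of its channels were measured on every array. This was 1 of 14707 genes, or 0.0068% of those tested. The adjusted p was 0.0245 without array 1, 0.151 without array 2 and 0.139 without array 3, while the mean ratio stayed at −4.08, −4.26 and −4.26. In the *ets-4(uz1)* arrays the *asp-12* ratios were −4.44, −4.09 and −3.96, overlapping those of *ok165*, and the difference between the strains was −0.04 ± 0.24 (SE).

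At an unadjusted p under 0.05 there were 426 lower genes (2.9% of those tested) and 546 higher genes (3.71%). The number of genes past the adjusted threshold depended on the fit. With all 6 arrays in the fit 13 genes passed for *ets-4(ok165)* (0.0884%), of which 9 were lower. That fit pools the spread of the arrays of both strains, which differs between them. A gene that is even in *uz1* can thus pass with a wider spread in *ok165*. A fit that also took the array number as a block, called the blocked fit below, passed 46 (0.313%), of which 30 were lower. Its test against 0 is less strict, since variation shared by same-numbered arrays leaves the error but stays in the mean. By Rank Products 72 genes were lower (0.381% of 18874) and 51 higher (0.27%), all 13 among them. The 13 were *asp-12*, F56A4.3, *fbxa-193*, *haf-6*, *ets-4*, *ech-9*, *vit-3*, *vit-4* and *vit-5* among the lower genes and *lys-7*, *sams-1*, *pho-8* and T14E8.2 among the higher ones.

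A ratio of at least 1 log2 unit with 1 sign on every array was found for 28 lower genes (0.19% of those tested) and 29 higher genes (0.197%). Rank Products called each of these 57, which their selection favors, since it ranks genes on the same 3 arrays. The 15 lower and 15 higher genes whose smallest ratio over the 3 arrays was largest are described next, with their ratios as a description, since consistency chose them. Of the 30, 13 passed in the fit of all 6 arrays (adjusted p from 4.26e-04 to 0.0371) and 20 in the blocked fit (0.00267 to 0.0424). In the fit of the 3 arrays alone the adjusted p of the 15 lower genes ran from 0.0311 to 0.499 and that of the 15 higher genes from 0.162 to 0.615. The 10 without a call in the blocked fit were F56A4.2, B0250.7, *srh-206*, E03H4.4, *clec-61*, F47H4.2, *mbug-1*, F45D11.4, *gtnt-18* and *lys-7*, the last of which passed without it (adjusted p = 0.0371 from limma on all 6 arrays, 0.0545 in the blocked fit). After normexp background correction and loess the mean ratio was smaller by more than 1.5 times for 17 of the 30, with the sign kept. These were *srh-206*, *oac-12*, T14E8.2, B0250.7, *thn-3*, *clec-13*, E03H4.4, *sams-1*, *ets-4*, *fbxa-193*, *clec-70*, *ech-9*, *clec-7*, *irld-35*, *clec-61*, F45D11.4 and F45D11.1. The other 13, among them *asp-12* (−3.99), F56A4.3 (−3.98) and *lys-7* (2.43), changed less.

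**Figure D2:**
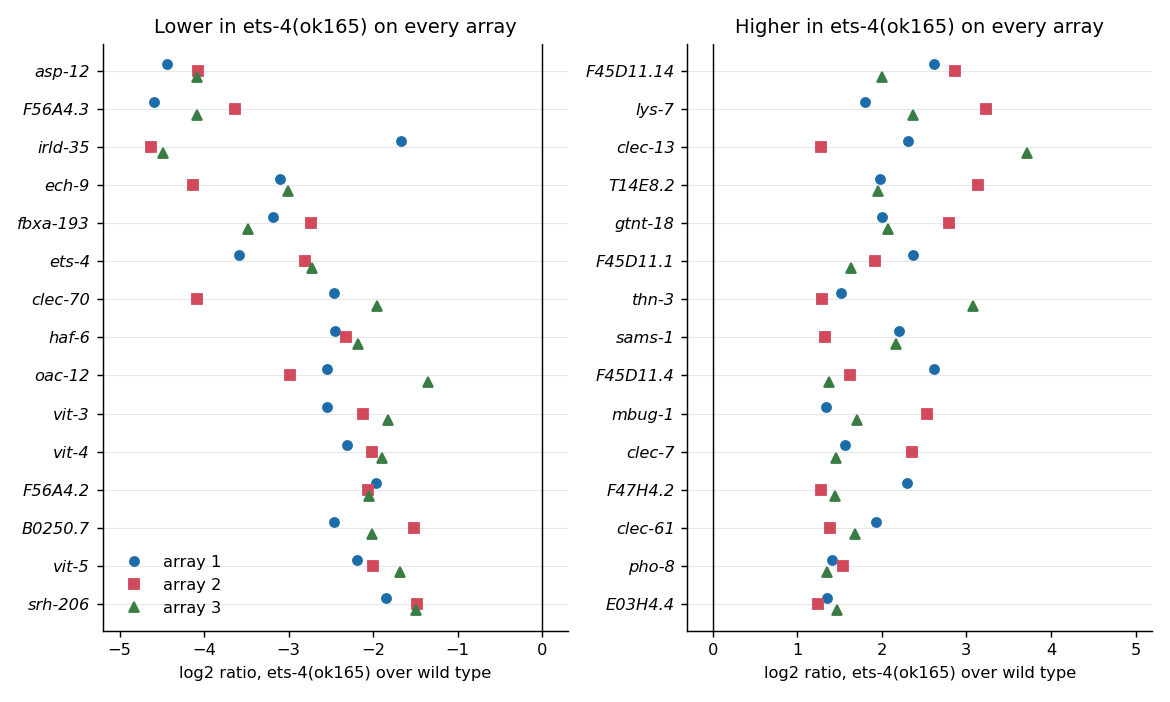
Log2 ratios of *ets-4(ok165)* over wild type on arrays 1, 2 and 3 for the 15 lower genes (left) and the 15 higher genes (right) with the largest smallest-array ratio, ordered by their mean. *asp-12* lies between −4.44 and −4.07, while *irld-35* has −1.67 on array 1 and −4.62 and −4.48 on the other two.

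The signal of *ets-4* itself was lower on all 3 arrays, at −3.59, −2.80 and −2.72 (mean −3.04 ± 0.48, 8.22-fold, adjusted p = 0.118 from limma and 0.00635 with all 6 arrays), and the mean was −1.41 after normexp and loess. The mutant channel was measured on 2 arrays and the wild-type channel on 3. In *ets-4(uz1)*, where the study detected a shortened *ets-4* mRNA, the mean at the same probe was −3.03 ± 0.17 (SD, n = 3 arrays). The place of the *ets-4* probe relative to the deletion was not determined here, so a lost probe target and a lower transcript level cannot be told apart. Of the 6 other ETS factor genes tested none passed in the 3-array, the 6-array or the blocked fit, and their means lay between −0.14 and 0.53, with *ets-9* highest at 1.53, −0.72 and 0.80 on the 3 arrays.

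Genes close to *ets-4* on the X chromosome stood out on one side of it. In RefSeq order the genes to its right are *ceh-60*, *ilys-5*, T14E8.2, *svh-2* and *dop-3*, with 1 unmeasured gene before *dop-3*. The probe of *ceh-60* is annotated to F22A3.4 and RefSeq lists the gene as F22A3.5, so its place in this order is assumed. *ceh-60*, a TALE-class homeobox gene, had ratios of −1.80, −2.50 and −0.73 (mean −1.68 ± 0.89, adjusted p = 0.640 from limma, 0.0440 in the blocked fit). *ilys-5*, an invertebrate-type lysozyme gene, had −0.34, −1.67 and −1.44 (mean −1.15 ± 0.71, adjusted p = 0.689). These 2 genes were lower on every array, by amounts that varied by more than 1 log2 unit between arrays. The *ilys-5* ratio on array 1 equals that of genes with a saturated spot there, such as *dpy-5* and *rps-20*. Its spread may thus hold a clipped value, which was not tested.

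T14E8.2, the third gene to the right, had the opposite sign, at 1.98, 3.14 and 1.95 (mean 2.35 ± 0.68, adjusted p = 0.306 from limma and 0.0371 with all 6 arrays). Its wild-type channel was measured on none of the arrays and its mutant channel on all 3. The deposited signals then give a signal limit of 2.87-fold on the mean. That limit sets the mean mutant signal over the lowest signal among measured wild-type probes, or over the probe's own where that was higher. After normexp and loess the mean ratio was 0.78 (1.72-fold), under that limit, so the limit is no firm minimum. In *ets-4(uz1)* the T14E8.2 ratios were 0.00, 0.43 and 0.00, below those of *ok165*. The difference between the strains did not pass without the block (adjusted p = 0.13 from limma) and passed in the blocked fit (0.0427). *ceh-60* by contrast had a *uz1* mean of −1.89, close to that of *ok165* (adjusted p of the difference = 0.920). On the left, *ttr-35*, a transthyretin-like gene next to *ets-4* among those measured, had −0.13, −0.78 and −0.10 (adjusted p = 0.762), and the next 4 measured genes had means between −0.45 and 0.18.

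**Figure D3:**
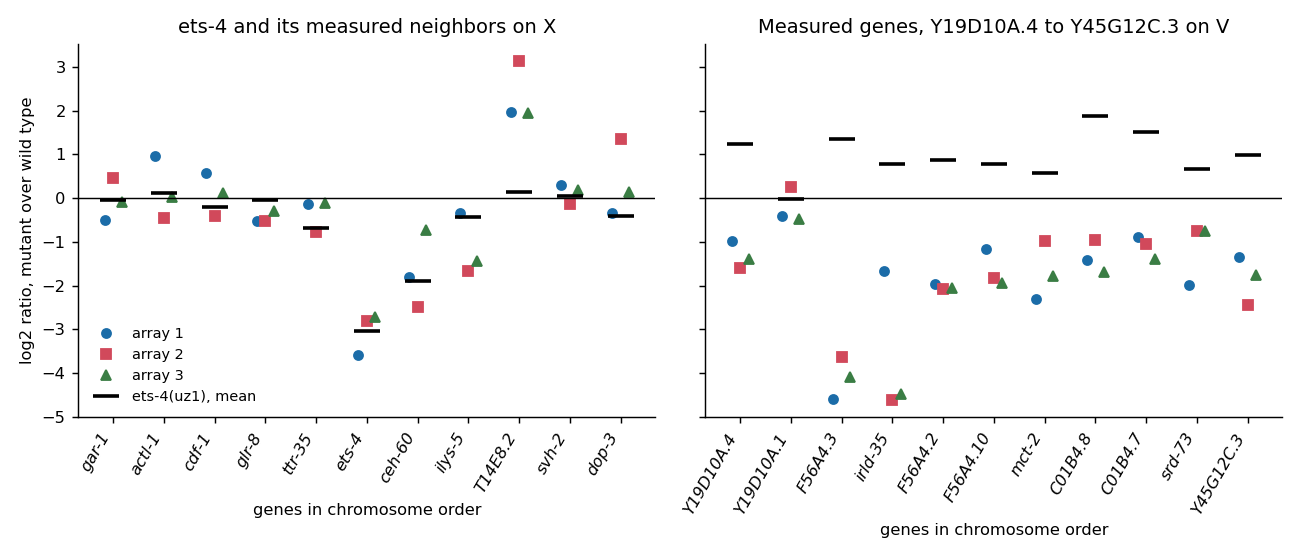
Log2 ratios on the 3 *ets-4(ok165)* arrays, with the *ets-4(uz1)* mean as a black bar, for *ets-4* and its measured neighbors on X (left) and for the 11 measured genes from Y19D10A.4 to Y45G12C.3 on V (right), in RefSeq order and not to distance. On V, 10 of the 11 genes lie below 0 on every *ok165* array while their *uz1* means lie above 0.

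A second neighborhood, on chromosome V, held several of the lower genes. It was marked out after its values were seen, from Y19D10A.4 to Y45G12C.3, a stretch of 39 protein-coding genes of which 11 were tested. F56A4.3 had ratios of −4.60, −3.63 and −4.08 (mean −4.10 ± 0.48, 17.2-fold, adjusted p = 0.0746 from limma and 0.00759 with all 6 arrays). Its neighbor *irld-35* (F56A4.9), which encodes a protein with a receptor L domain as in insulin and EGF receptors, had −1.67, −4.62 and −4.48 (mean −3.59 ± 1.66). F56A4.2 was the most even gene of the stretch at −1.97, −2.06 and −2.05, and F56A4.10 had −1.17, −1.82 and −1.93. Of the 11 genes 10 were lower on all 3 arrays, against 14.9% of all genes tested.

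The same stretch read differently in the other allele. In *ets-4(uz1)* the means of 10 of the 11 genes were above 0, among them F56A4.3 at 1.35 ± 0.74 (SD, n = 3 arrays), C01B4.8 at 1.88 and C01B4.7 at 1.52. The difference between the strains passed for 5 of the 11 (limma on all 6 arrays, 0.136% of 14702 genes called), namely Y19D10A.4, F56A4.3, F56A4.10, C01B4.8 and C01B4.7. For F56A4.3 it was −5.45 ± 0.42 (SE, adjusted p = 0.0157), for C01B4.8 −3.23 (adjusted p = 0.0164) and for C01B4.7 −2.63 (adjusted p = 0.0164). In the blocked fit F56A4.10 no longer passed (adjusted p = 0.0577), and *irld-35* (0.0175), *mct-2* (0.0308), *srd-73* (0.0350) and Y45G12C.3 (0.0256) did. *mct-2* had *ok165* ratios of −2.31, −0.99 and −1.78 and the chemoreceptor gene *srd-73* −1.99, −0.74 and −0.76.

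Other genes that were strong on all 3 arrays also lay near each other, as read after their values were seen. Of the 57 genes past 1 log2 unit on every array, 51 could be placed in the RefSeq order, and 24 of them (47.1%) lay within 20 protein-coding genes of another one, against 6.07% of the 13864 tested genes that could be placed. They formed 10 groups, of which 3 held genes of both signs, such as *oac-25* (mean 1.28) with *gmd-2* (−1.74). Some groups were related neighbors that may share probe signal, such as *vit-3* with *vit-4* and *thn-1* with *thn-2*. Another held *ets-4* itself. The share of 47.1% thus does not count independent changes only. None of the 10 groups held the F45D11 genes of chromosome II, of which F45D11.1, F45D11.2 and F45D11.4 had no place in the RefSeq order. F45D11.14 had ratios of 2.62, 2.87 and 2.0, F45D11.1 2.37, 1.92 and 1.64, and F45D11.4 2.61, 1.62 and 1.38. The 2 other F45D11 genes tested were nearer to 0, F45D11.2 at 1.76, 0.92 and 0.94 and *fbxc-42* (F45D11.9) at 0.54, 0.00 and −0.04. In *uz1* the means of F45D11.14, F45D11.1 and F45D11.4 were −0.25, 0.06 and 0.27, and the difference between the strains did not pass for any of them without the block (adjusted p = 0.150, 0.153 and 0.825 from limma) and passed in the blocked fit for F45D11.14 and F45D11.1 (0.0475 for both). The F45D11 genes share a name prefix, and whether they lie side by side or share probe signal was not tested.

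The neighbors *gtnt-18* and *gtnt-17* on V had opposite signs in the 2 alleles. *gtnt-18* had ratios of 2.01, 2.79 and 2.07 in *ok165* and −2.10, −3.02 and −1.51 in *uz1*, a difference of 4.50 ± 0.42 (SE, adjusted p = 0.0171 from limma). *gtnt-17* had 1.24, 2.21 and 2.41 in *ok165* against −2.70, −3.82 and −2.46 in *uz1* (adjusted p = 0.0165). No *ok165* value overlapped a *uz1* value for either gene, as their opposite signs on all arrays entail.

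By chromosome, V held 24 of the 57 genes (13 lower and 11 higher), which is 0.798% of the 3008 genes tested there against 0.388% over all chromosomes. Chromosome IV held 12, I and II 7 each and X 7, and none of the 2166 genes tested on III was among them. On X the 5 lower genes were *ets-4*, *vit-3*, *vit-4*, *vit-5* and the nuclear hormone receptor gene *nhr-173* (−1.19, −1.67 and −1.24). The 2 higher ones were T14E8.2 and *sams-1*.

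Among genes of fat and yolk, the yolk protein genes were lower and the rest mixed. Vitellogenins carry lipid from the intestine to oocytes, and all 6 of their genes were lower on all 3 arrays, with a median of −1.58 against −0.02 over all genes. *vit-3* had −2.54, −2.12 and −1.82, *vit-4* −2.31, −2.02 and −1.89, and *vit-5* −2.19, −2.01 and −1.68. None of the 6 passed in the 3 arrays alone, and these 3 genes, whose sequences are close enough to share probe signal, passed with all 6 arrays (adjusted p = 0.00914, 0.00914 and 0.0125 from limma). *vit-2* (−1.19 ± 0.28), *vit-6* (−0.86 ± 0.45) and *vit-1* (−0.73 ± 0.41) had smaller ratios. Apart from *ceh-60*, the 6 known regulators of yolk genes that were tested had means between −0.07 and 0.33 and mixed signs across arrays.

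Of 39 genes of fatty acid β-oxidation tested, 10 were lower on every array and 4 higher (25.6% and 10.3%, against 14.9% and 14.8% of all genes). *ech-9*, an enoyl-CoA hydratase gene, was the strongest, at −3.10, −4.13 and −3.01 (mean −3.41 ± 0.62, 10.7-fold, adjusted p = 0.118 from limma and 0.00635 with all 6 arrays). *acox-1.5*, an acyl-CoA oxidase gene, had −1.04, −1.64 and −0.89, and the acyl-CoA dehydrogenase gene *acdh-2* −0.70, −2.07 and −0.95 at the probe used and 0.04, −1.92 and −1.03 at its other probe. After normexp and loess *ech-9* had a mean of −1.63. The list median was −0.02, −0.52 and 0.00 on the 3 arrays, lowest on array 2.

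Of 16 genes of fatty acid synthesis, desaturation and elongation, 3 were lower and 4 higher on every array (18.8% and 25%, against the same 14.9% and 14.8%). *fat-7*, a stearoyl-CoA Δ9 desaturase gene, had −1.31, −2.58 and −0.93 (mean −1.61 ± 0.87, adjusted p = 0.640 from limma) and the related *fat-5* −0.67, −2.24 and −0.30. The lysosomal lipase gene *lipl-4* had −0.97, −1.59 and −1.05. None of these 3 genes passed in the 3-array, the 6-array or the blocked fit, and Rank Products called *fat-7* lower.

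*sams-1*, which encodes the S-adenosylmethionine synthetase that supplies methyl groups for phosphatidylcholine synthesis, was higher on every array, at 2.20, 1.33 and 2.16 (mean 1.90 ± 0.50, 3.73-fold, adjusted p = 0.306 from limma and 0.0371 with all 6 arrays). Its wild-type channel was measured on 2 arrays, and its mean was 0.83 after normexp and loess (1.78-fold). The other 15 genes of the methionine cycle and phosphatidylcholine synthesis were not called, and their means ran from −0.37 to 0.62, with *pmt-1*, a phosphoethanolamine methyltransferase gene, at 0.33, 0.45 and 0.44. In *uz1* the *sams-1* ratios were 0.40, 0.30 and 0.10, below the *ok165* range, though the difference between the strains did not pass (adjusted p = 0.160 from limma).

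Genes of the gut and of defense against microbes were split. Of 14 lysozyme genes, 9 were lower on every array and 2 higher (64.3% and 14.3%, against 14.9% and 14.8% of all genes), and none passed in the 3 arrays alone. *lys-7*, a lysozyme of the innate immune response, was highest at 1.80, 3.23 and 2.37 (mean 2.47 ± 0.72, 5.52-fold). *lys-10* had 0.57, 1.59 and 3.47, with no measured wild-type channel and a signal limit of 2.15-fold on the mean.

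The lower lysozyme genes were of both kinds found in worms. The protist-type gene *lys-6* had −1.06, −2.15 and −0.82, and *lys-5* and *lys-4*, named after their values were seen, had means of −1.28 ± 0.47 and −1.25 ± 0.49. These have similar sequences and may share probe signal. The invertebrate-type gene *ilys-2* had −1.13, −1.55 and −1.16 (mean −1.28 ± 0.23, adjusted p = 0.306 from limma). The list median was −0.75, and it was −0.22, −1.08 and −0.70 on the 3 arrays.

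All 4 thaumatin genes tested, relatives of plant antifungal proteins, were higher on all 3 arrays. *thn-1* had 1.83, 1.20 and 2.17, *thn-2* 1.64, 1.17 and 2.18, *thn-7* 1.71, 1.20 and 2.06, and *thn-3* 1.52, 1.29 and 3.08. None passed in the 3 arrays alone (adjusted p from 0.306 to 0.615 from limma) or with all 6 arrays. All 4 passed in the blocked fit (0.0138 to 0.0457), whose test against 0 is less strict. *thn-1*, *thn-2* and *thn-3* lie at 1 locus and may share probe signal, and the wild-type channel of *thn-3* was measured on 1 array. The *uz1* means were 1.77 to 2.02.

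**Figure D4:**
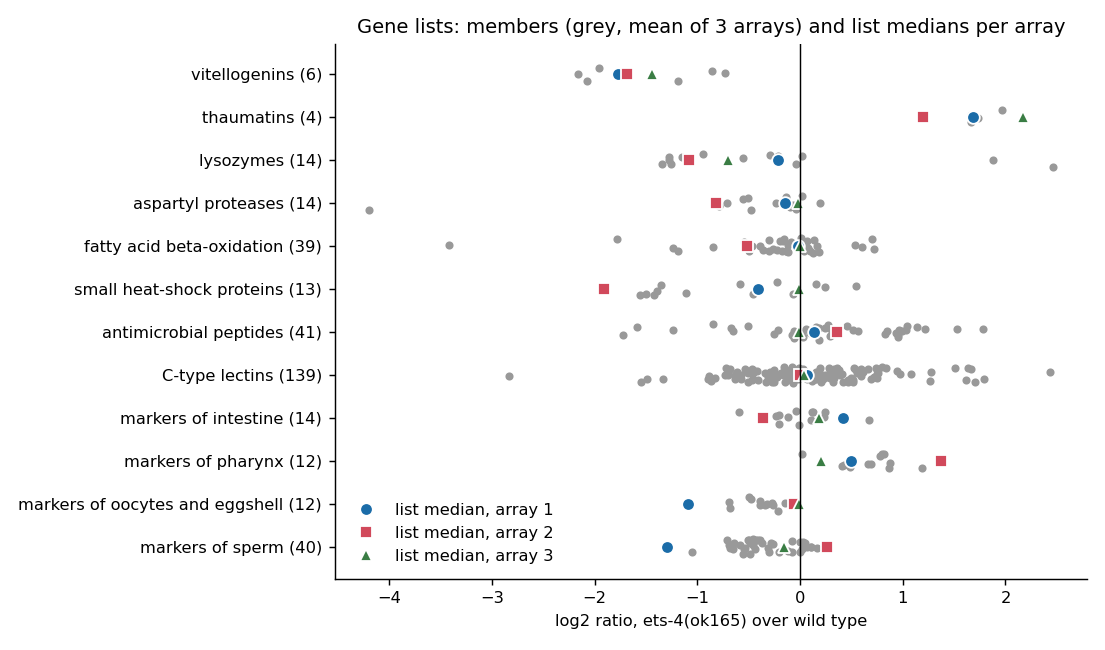
Log2 ratios of *ets-4(ok165)* over wild type for 12 gene lists, with 1 grey point per tested gene (mean of 3 arrays), the number of genes in parentheses and the list median on each array as a colored marker. The medians of the vitellogenins (−1.77 to −1.44) and thaumatins (1.20 to 2.17) keep 1 sign over the arrays, whereas those of sperm genes run from −1.30 to 0.26.

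C-type lectins are carbohydrate-binding proteins, many of which respond to pathogens. Of 139 tested, 24 were lower and 22 higher on every array (17.3% and 15.8%), close to the 14.9% and 14.8% of all genes, and the list median was 0.06. *clec-70* had −2.46, −4.08 and −1.96, *clec-13* 2.30, 1.28 and 3.71, *clec-7* 1.56, 2.36 and 1.46 and *clec-61* 1.94, 1.38 and 1.68. Each channel of *clec-70* was measured on 2 arrays, and the wild-type channel of *clec-13* on 1. In *uz1* the means of these 4 genes were −3.30, 1.76, 2.04 and 2.16.

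Antimicrobial peptide genes had no common direction. Of 41 tested, 6 were lower and 11 higher on every array (14.6% and 26.8%, against 14.9% and 14.8% of all genes). The caenacin genes *cnc-4* (−2.31, −2.47 and −0.40) and *cnc-2* (−1.90, −2.35 and −0.52) were lower, and *abf-5*, a defensin-like gene, was higher (1.95, 3.04 and 0.36). Array 3 had the smallest ratio for each of them. The *cnc-2* mean was 2.94 in *uz1*, and the difference between the strains did not pass without the block (adjusted p = 0.108 from limma) and passed in the blocked fit (0.0218). *cnc-4* had a *uz1* mean of 0.86, with an adjusted p of the difference of 0.421 from limma, 0.0273 in the blocked fit. Of the saposin-like genes *spp-3* was lowest (−1.34, −1.82 and −0.72, adjusted p = 0.616 from limma, 0.0324 in the blocked fit).

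Several transport, turnover and receptor genes were among the 30. *haf-6*, an ABC half-transporter gene needed for efficient RNA interference, had −2.45, −2.32 and −2.18 (mean −2.32 ± 0.13, 4.98-fold, adjusted p = 0.114 from limma and 0.00914 with all 6 arrays). The other 6 ABC half-transporter genes tested had means between −0.21 and 0.20. In *uz1* the *haf-6* ratios were −0.97, −0.61 and −0.15, above every *ok165* value, and the difference had an adjusted p of 0.108 from limma and 0.0435 in the blocked fit.

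*pho-8*, an intestinal-type acid phosphatase gene, was even at 1.41, 1.54 and 1.35 (mean 1.43 ± 0.10, adjusted p = 0.272 from limma and 0.0330 with all 6 arrays). The putative *O*-acyltransferase gene *oac-12* had −2.54, −2.99 and −1.35, with its mutant channel measured on 1 array. The related *oac-10*, named after its values were seen, had −4.49, −4.38 and −1.23. Both *oac* genes were lowest on arrays 1 and 2 and nearest to 0 on array 3.

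Of 173 F-box genes, which encode adaptors of ubiquitin ligases, 25 were lower and 10 higher on every array (14.5% and 5.78%, against 14.9% and 14.8% of all genes). *fbxa-193* (F59A1.9) had −3.18, −2.74 and −3.48 (mean −3.13 ± 0.38, 8.78-fold, adjusted p = 0.105 from limma and 0.0119 with all 6 arrays, mean −1.46 after normexp and loess), and *fbxa-191* −1.87, −1.31 and −2.34 (adjusted p = 0.306 from limma, 0.0154 in the blocked fit). In *uz1* *fbxa-193* had 0.32, 0.84 and −0.50, and the difference was −3.36 ± 0.38 (SE, adjusted p = 0.0358 from limma). Among 185 nuclear hormone receptor genes, 22 were lower and 20 higher on every array (11.9% and 10.8%, both under the shares of all genes). *nhr-234* had 1.88, 2.02 and 1.18. *nhr-235* had 2.22, 3.14 and 0.69, with no measured wild-type channel and a signal limit of 2.60-fold on the mean.

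Genes of the insulin/IGF-1 pathway, which regulates life span through the FOXO factor DAF-16, differed little. Of 12 tested, none passed or reached an unadjusted p of 0.05 in limma on the 3 arrays, and their means lay between −0.21 and 0.35. *daf-16* had 0.19, 0.72 and 0.14 at the probe used, and its 2 other probes had means of −0.15 and −0.31. Of 12 stress and longevity factor genes the lowest was *crh-1* (−0.98, −1.13 and −0.10), whose 3 other probes had means between 0.02 and 0.78. *sod-3*, a manganese superoxide dismutase gene that DAF-16 activates, had a mean of 0.57 ± 0.55 (adjusted p = 0.735 from limma).

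**Figure D5:**
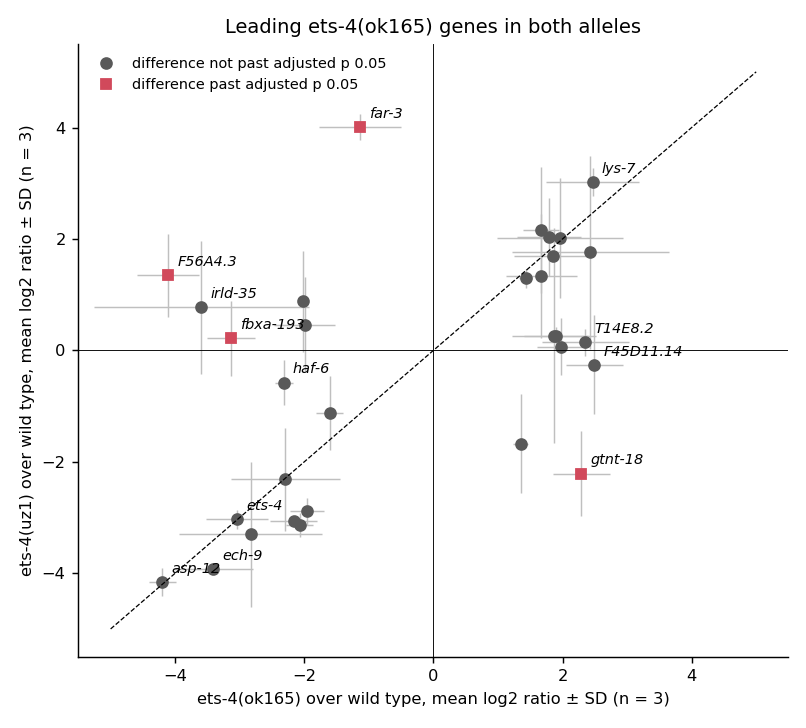
Mean log2 ratio over wild type in *ets-4(ok165)* (horizontal) and *ets-4(uz1)* (vertical), each with its SD over 3 arrays, for the 30 leading *ok165* genes and *far-3*. Red squares are the 4 genes whose difference between the strains passed, and the dashed line marks equal ratios.

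Whether the arrays of both strains shared wild-type RNA is not given in the sources used here, and shared RNA could raise the number of shared signs. Of the leading genes, 10 of the 15 lower and 9 of the 15 higher had the *ok165* sign on all 3 *uz1* arrays. The same count over all genes is not given here. Among the 30 leading genes, F56A4.3 and F56A4.2 were higher on all 3 *uz1* arrays and *gtnt-18* and E03H4.4 lower, opposite to *ok165*. The difference between the strains passed for 3 of the 30 (F56A4.3, *fbxa-193* and *gtnt-18*), and for 9 in the blocked fit. E03H4.4 had 1.35, 1.24 and 1.47 against −1.90, −2.42 and −0.69 (adjusted p = 0.0943 from limma, 0.0475 in the blocked fit). *far-3*, whose product binds fatty acids and retinol, was named from its list and had −0.49, −1.75 and −1.17 in *ok165* against 3.96, 3.80 and 4.27 in *uz1* (difference −5.15 ± 0.35, SE, adjusted p = 0.0125 from limma).

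Marker genes of tissues differed in their arrays more than in their means. The 40 sperm genes had a median of −1.30 on array 1, 0.26 on array 2 and −0.16 on array 3, and the 12 oocyte and eggshell genes −1.09, −0.05 and −0.01. The summed wild-type signal of the oocyte genes was 63440 on array 1, 41210 on array 2 and 198500 on array 3, against mutant sums of 26350, 46000 and 191700. All 12 were measured in both channels. Germ line genes had medians of −0.60, 0.60 and −0.08.

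Of somatic tissues, the 12 pharynx genes stood highest, with a median of 0.74 and 8 of them higher on every array (66.7%, against 14.8% of all genes). *myo-1*, a pharyngeal myosin gene, had 1.64, 1.51 and 0.43 (adjusted p = 0.685 from limma), and the list's summed mutant signal exceeded the wild-type sum by 0.55, 1.54 and 0.20 log2 units. The 14 intestine genes, all measured, had medians of 0.42, −0.36 and 0.18, and *elt-2*, the GATA factor gene of the intestine, a mean of −0.01 ± 0.43. Body wall muscle genes had a median of 0.07, neuron genes of 0.21 and epidermis genes of 0.18. None of the markers passed in the 3-array, the 6-array or the blocked fit. The study reports that *ets-4(ok165)* larvae developed more slowly than wild-type larvae. The part of tissue make-up and of stage in the genes described above was not tested.

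Some stress genes were lowest on array 2. The 13 small heat-shock protein genes, chaperones induced by heat and other stress, had a median of −1.91 on array 2, −0.41 on array 1 and −0.01 on array 3. *hsp-16.48* had −1.47, −2.76 and −0.28, and *hsp-16.41* had no value on array 1 and −2.81 and −0.31 on the others. The 75 cytosolic ribosomal protein genes had medians of −0.34, 0.16 and −0.01. Array 1 had 128 saturated spots, and arrays 2 and 3 had 0. On array 1 the saturated genes *rps-20*, *dpy-5*, *dpy-13* and *far-2* share a ratio of −0.34, the same as this list median. Other saturated genes differed there, such as *rpl-8* at −0.05. How far saturation sets the median was not tested. Of 156 cuticle collagen genes 18 were lower and 28 higher on every array (11.5% and 17.9%), with none called in limma on the 3 arrays and a median of 0.05.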

How the data were processed

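Total RNA of late L4 larvae (whole worms, 20°C, OP50 bacteria) was compared on Agilent *C. elegans* 22K two-color arrays, mutant cDNA in Cy5 and wild-type cDNA in Cy3 on every array. The authors obtained a signal intensity for every spot from Agilent Feature Extraction, whose version was 8.5.1.1 on array 1 and 9.1.3.1 on arrays 2 and 3, per the file headers. The deposited log10 ratios had been corrected for background and normalized by lowess, array by array. The deposited log2 values of the series table hold these ratios by probe and served as an alternative. How the arrays limit precision follows from their number, 3.

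Here log10 ratios were converted to log2. Control and outlier spots were left out, and repeated spots averaged. A probe had to be well above background in Cy3 or Cy5 on 2 or more of the 3 arrays, and each gene was represented by its brightest such probe, leaving 14707 of 18874 genes. limma (version 3.58.1, R version 4.3.3) tested the mean ratio against 0 with Benjamini-Hochberg adjustment over all genes (2 residual and 3.08 prior degrees of freedom), with a threshold of 0.05. A fit of all 6 arrays of the series gave the difference between the strains and an alternative test of the *ets-4(ok165)* mean. Its error pools the spread within both strains. Same-numbered arrays of both strains deviated together from their strain means (r = 0.514, 0.684 and 0.296 over 14530 genes, which are not independent replicates), so the array number was also tried as a block. That block takes variation shared by same-numbered arrays out of the error although it stays in the mean, so its test against 0 is the less strict one. Rank Products, named in the methods, was run with 100 permutations at a probability of false prediction under 0.1, without the filter and with outlier spots kept. Other alternatives were no filter, a stricter filter, outlier spots kept, ratios of 0 left out, normexp background correction (offset 50) with loess, the series table, slide as a random block, and each array left out. The 3-array fit and Rank Products were tried on simulated data, and the fits of all 6 arrays were not.

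Genes named are every gene called, the 15 lower and 15 higher genes with the largest smallest-array ratio among those of 1 sign on all 3 arrays, *ets-4* and the measured genes next to it, and up to 4 members of each list described with the largest mean ratio (all members of lists of 10 or fewer). Others are said to be chosen after their values were seen. Members and the 44 gene lists were chosen with earlier results of these data known, so lists have counts and medians and no test. Gene names, chromosomes and gene order came from RefSeq (WBcel235), which matched 18121 genes. The name *ceh-60* for F22A3.4 is the study's. Nothing in the labels says which cultures the arrays share, so p-values measure the spread between these arrays.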

Additional observations from a re-analysis of the deposited data

Results flagged for a closer look

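The tested difference between the strains, *ets-4(ok165)* minus *ets-4(uz1)*, passed at an adjusted p under 0.05 (limma on all 6 arrays) for 4 of the genes named by the rule. It was 4.50 log2 units for *gtnt-18* (2.29 in *ok165* and −2.21 in *uz1*, adjusted p = 0.0171), −5.15 for *far-3* (−1.14 and 4.01, adjusted p = 0.0125), −5.45 for F56A4.3 (−4.10 and 1.35, adjusted p = 0.0157) and −3.36 for *fbxa-193* (−3.13 and 0.22, adjusted p = 0.0358). For each of the 4 genes no *ok165* array overlapped a *uz1* array, which their choice by this difference favors. Each also passed in the blocked fit (adjusted p = 0.0431, 0.0175, 0.0308 and 0.0206). Groups of 3 arrays are too small for a check of outlying samples.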

How the results depend on the processing

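The count of 1 changed gene in the 3-array test was kept with the stricter filter, outlier spots kept, ratios of 0 left out and the series table. limma called 0 genes without the filter (1322 at an unadjusted p under 0.05) and 0 after normexp and loess (926), where *asp-12* had adjusted p = 0.650 and 0.0508 with a mean ratio of −4.20 and −3.99. All 6 arrays gave 13, or 13 with slide as a random block, 46 with the replicate block, and Rank Products 123. Leaving out 1 array gave 0 to 3, with 3 without array 1 (*asp-12*, F56A4.3 and *irld-35*), 0 without array 2 (983 at an unadjusted p under 0.05) and 0 without array 3 (925). Of the genes in the described lists 1 was called, against 0 without the filter, 0 after normexp and loess, 11 with all 6 arrays, 11 with slide as a random block, 25 with the replicate block and 0 to 1 without 1 array. The difference between the strains passed for 20 genes, 20 with slide as a random block, 84 with the replicate block, 1 without the filter, 7 after normexp and loess and 0 to 3 without 1 replicate number. The cause of these shifts was not tested. Each of the 30 leading genes kept its sign under every alternative that tested it, which their selection favors, but 17 of the 30 were smaller by more than 1.5 times after normexp and loess (*oac-12* −0.72, B0250.7 −0.73, *sams-1* 0.83). Of the 222 genes named by the rule, 6 had the other sign after normexp and loess, and 16, 17 and 9 did so without array 1, 2 and 3. With 3 arrays, dim wild-type channels and no dye swap, small differences could not be resolved.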
